A study of Mus musculus with 10 samples.

Results

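The serpin protease inhibitors were followed through RNA sequencing of 10 libraries from mouse cultures that the labels call primary white adipocytes. The members are the genes whose mouse symbol begins with Serpin, 1 family gene left aside by the choice of members, that reached at least 1 TPM in 2 or more libraries. TPM is a relative abundance, corrected for transcript length and scaled to the same total of all transcripts in each library. Of 67 such genes in the files 21 qualified, among 28987 gene IDs in all and 14166 that passed the same level and were tested. They comprise 6 of 29 genes of clade a, 9 of 28 of clade b, 2 of 3 of clade e, both of clade f, the 1 gene of clade h and 1 of 2 of clade i. The 46 others, 16 of them listed at 0 in all libraries, are described only where named.

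The inguinal fat pads of C57BL/6 males, 6 to 8 weeks old, were digested, and the cells were grown to confluence and treated for 24 h. The 5 groups of 2 libraries received LPS, bacterial lipopolysaccharide, at 100 ng/ml, norepinephrine, the sympathetic transmitter, at 1 mM, the recombinant TNF-family ligand BAFF at 500 ng/ml, the related recombinant ligand APRIL at 500 ng/ml, or saline. Adipose tissue is named in one label and adipocytes in another, and nothing states if replicate libraries stem from different animals or wells. The p-values therefore measure only the spread between these samples. Of the 7 adipocyte markers checked, 6 passed the level for testing. They summed to 4683 and 5256 TPM with LPS, 13010.0 and 13506 TPM with norepinephrine, 6467 and 8031 TPM with BAFF, 4736 and 2140.3 TPM under the APRIL label, and 6754 and 7798 TPM with saline. Leptin (Lep) lay between 0 and 0.806 TPM, and Fabp4 made up most of each sum. Under the APRIL label Fabp4, Adipoq, Cebpa and Lep lay below saline, while Cidec and Plin1 overlapped it. Pparg went the other way, at 313 and 177 TPM under the APRIL label and 80.7 and 88.5 TPM with saline.

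The 2 libraries labelled APRIL differed broadly from all others. Across the tested genes they correlated with those at 0.850 to 0.886, against 0.948 to 0.991 among the 8. Although the labels give all mice as male, 4 Y-linked genes together reached just 0.489 and 0.775 TPM there, compared with 93.8 to 123 TPM elsewhere. Every result on these libraries below compares the libraries as labelled, and counts of called genes in the other comparisons are also given with them left out of the fit.

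Serpins share a fold in which an exposed reactive loop serves as bait. A protease that cuts the loop is trapped in a covalent complex and both molecules are inactivated. Clade a holds mostly secreted plasma-type inhibitors, with a greatly expanded Serpina3 cluster in the mouse. Clade b serpins lack a classical signal peptide and act largely inside cells. Clade e holds the inhibitors of plasminogen activators, and some members, such as Serpinf1 and Serpinh1, inhibit no protease. Adipose tissue is a known source of Serpinf1 (PEDF).

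The members sit partly in gene clusters. On the mm10 genome 6 Serpina3 members lay within 268 kb of chromosome 12, and 7 clade b members lay within 1161 kb of chromosome 13. The sequences before the start of 4 members are shown because Serpinb2 and Serpina3g rose with LPS, Serpina3c fell, and Serpina3f is the gene that shares most sequence with Serpina3g. Each is the 250 bases before a RefSeq start (build GRCm38.p6), 5′ to 3′ in the gene's direction. Capitals mark matches on either strand to the letters of 6 motifs, and no 2 matches overlap. The motifs were an NF-kB motif (GGG, any 3 bases, then TTCC), the cAMP response element TGACGTCA, the C/EBP motif TTGCNNAA and the STAT motif TTCNNNGAA. The AP-1 motif searched was TGANTCA. The TATA box was searched as TATAAA.
Serpinb2, chr1:107511173-107511422, plus strand: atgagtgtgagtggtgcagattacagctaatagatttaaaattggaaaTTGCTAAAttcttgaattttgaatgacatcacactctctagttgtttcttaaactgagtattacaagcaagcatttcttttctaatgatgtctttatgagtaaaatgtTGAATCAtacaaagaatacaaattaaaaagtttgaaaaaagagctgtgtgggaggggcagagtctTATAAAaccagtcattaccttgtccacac
Serpina3g, chr12:104235897-104236146, plus strand: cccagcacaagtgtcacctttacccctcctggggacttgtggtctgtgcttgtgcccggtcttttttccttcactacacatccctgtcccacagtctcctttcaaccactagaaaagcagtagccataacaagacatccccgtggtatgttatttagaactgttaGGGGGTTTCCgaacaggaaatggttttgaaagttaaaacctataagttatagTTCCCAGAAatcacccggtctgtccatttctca
Serpina3f, chr12:104214294-104214543, plus strand: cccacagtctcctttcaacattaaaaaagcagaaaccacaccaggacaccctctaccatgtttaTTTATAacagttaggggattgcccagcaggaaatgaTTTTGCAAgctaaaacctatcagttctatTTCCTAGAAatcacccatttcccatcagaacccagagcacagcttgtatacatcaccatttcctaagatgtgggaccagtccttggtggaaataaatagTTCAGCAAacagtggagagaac
Serpina3c, chr12:104153873-104154122, minus strand: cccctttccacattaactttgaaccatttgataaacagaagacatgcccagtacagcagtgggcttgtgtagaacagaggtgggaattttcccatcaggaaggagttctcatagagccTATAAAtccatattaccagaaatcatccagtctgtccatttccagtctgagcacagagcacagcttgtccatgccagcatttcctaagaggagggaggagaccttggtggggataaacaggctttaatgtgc

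Among these 4 windows the NF-kB letters occurred in that of Serpina3g, 85 to 76 bases before the start. They also occurred in the windows of Serpina3i and Serpina3n, which were not called with LPS. The letters occurred in 4.65% of all 32851 promoter windows of this length. The window of Serpinb2 held the TATA letters 29 to 24 bases before the start and those of AP-1 and C/EBP farther up, which occurred in 12.4%, 6.75% and 9.56% of all windows. Of the windows shown, those of Serpina3g and Serpina3f held the STAT letters, which stood in 7.02% of all. Windows of Serpina3i and Serpinb6a, which were not called with LPS, held the STAT letters too. The Serpina3f window shown also held the C/EBP letters, 150 to 143 and 22 to 15 bases before the start, and the TATA letters, 186 to 181 bases before it. For Serpinb2 and Serpina3f RefSeq gives a second, overlapping window that is not shown. That of Serpinb2 held the STAT letters 77 to 69 bases and the TATA letters 116 to 111 bases before its start. It also held the AP-1 letters 181 to 175 bases and the C/EBP letters 19 to 12 bases before that start. The window of Serpina3c held the TATA letters alone, and the cAMP response element was in no window of a member and in 1.55% of all. RefSeq windows, 21 in all, were matched for 18 of the 21 members. For 15 of the windows the bases just after the start occurred in a GENCODE transcript of a member, but not for Serpina3g and Serpina3c. Distances for these 2 therefore count from a RefSeq start that this check did not find. A match describes letters and not a binding site.

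Serpin transcripts made up a small and fairly even part of each library. The members together took 0.509 and 0.470% of the listed TPM with LPS, 0.509 and 0.460% with norepinephrine, 0.534 and 0.463% with BAFF, 0.370 and 0.447% in the libraries labelled APRIL, and 0.490 and 0.449% with saline. Serpinf1, at 1032 to 2036 TPM over the libraries, Serpinh1, at 336 to 1152 TPM, Serpinb6a, at 344 to 645 TPM, and Serpina3n, at 126 to 334 TPM, were abundant throughout. Levels ran from these down to members near the 1 TPM limit, such as Serpinb9b, which spanned 0.356 to 1.37 TPM over the libraries. In between lay Serpina3m at 1.89 to 12.4 TPM, Serpinb6b at 1.58 to 7.40 TPM and Serpinb8 at 6.13 to 34.6 TPM. The second-highest library of a gene decides its membership. That value was 1.09 TPM for Serpina3f, 1.27 for Serpini1 and 1.34 for Serpinb9b just inside the limit, and 0.928 TPM for Serpina3h, 0.624 for Serpind1 (heparin cofactor II) and 0.401 for Serpinc1 (antithrombin) just outside. Clade d, which consists of Serpind1, therefore has no member. Serpinf2 and Serpini1 qualified through the libraries labelled APRIL alone, and Serpina3f through 1 LPS library and 1 of those labelled APRIL.

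**Figure D1:**
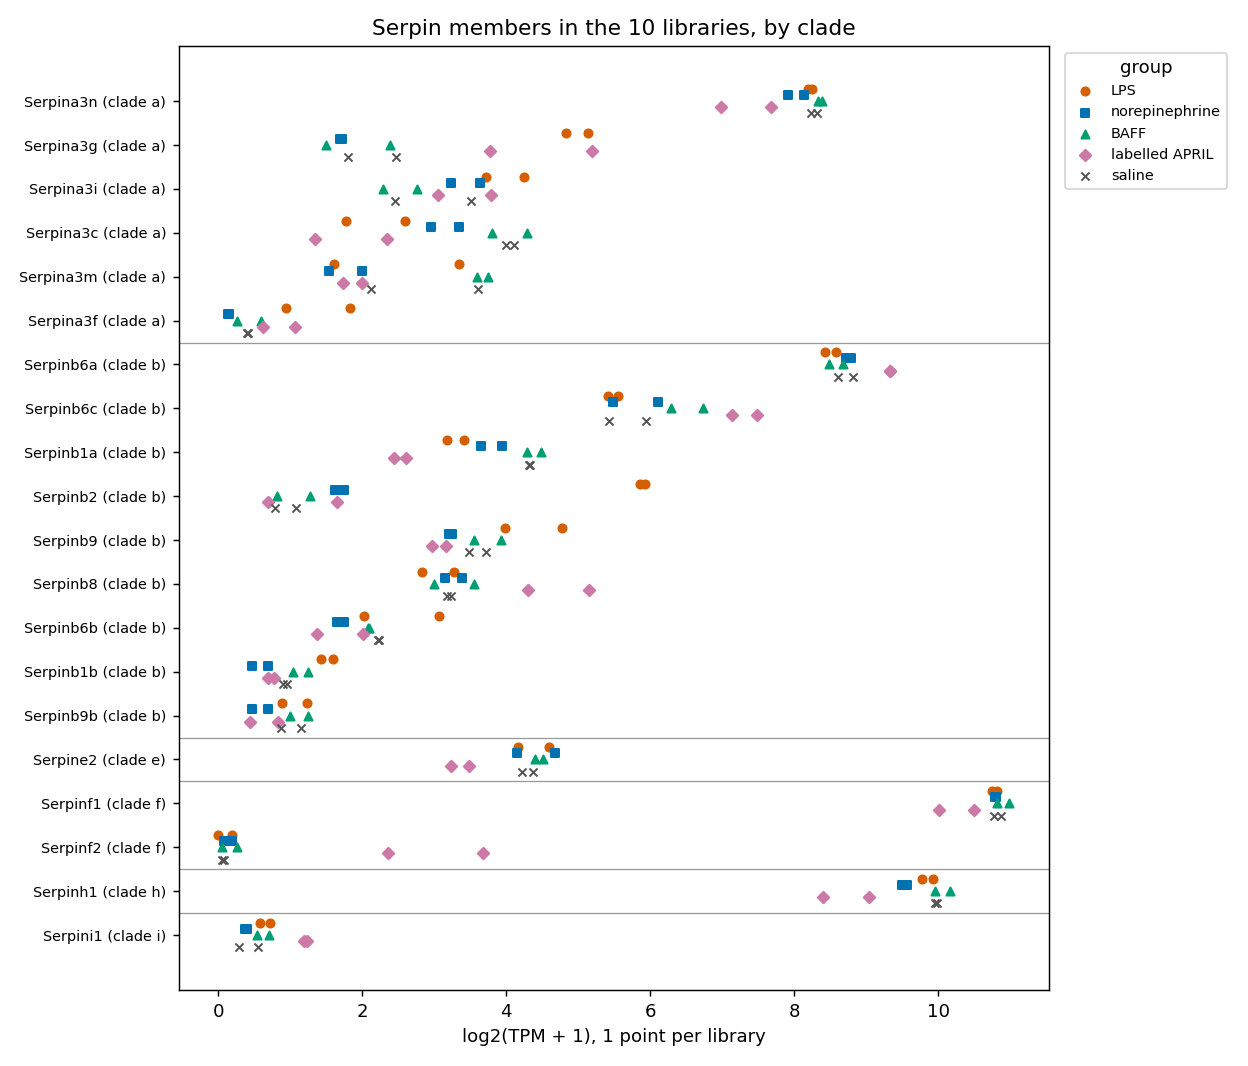
Level of the members described here in the 10 libraries as log2(TPM + 1), 1 point per library, grouped by clade and coloured by treatment. Serpinf1, at 1032 to 2036 TPM, lies at the right in every group, and the LPS points of Serpinb2 lie at 60.1 and 56.9 TPM, far right of its other points.

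Tests used log2(TPM + 1) with limma over all 14166 genes, and a gene was called at a Benjamini-Hochberg adjusted p under 0.05. A log2 fold change on this scale is given with its standard error and understates the change of genes with low TPM. In such cultures fewer cells of a type and less RNA per cell cannot be told apart.

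LPS against saline shows how the inhibitors responded to a bacterial stimulus. Cultures with LPS carried far more Serpinb2 and Serpina3g transcript and less Serpina3c and Serpinb1a, while the abundant members Serpinf1, Serpinh1, Serpinb6a and Serpina3n were not called. Of the 21 members 2 rose, 2 fell and 17 were not called, which is 19.0% called, against 3.80% of all tested genes (2.87% higher and 0.932% lower). The members' median log2 fold change was 0.04, and that of all tested genes was -0.01. Groups did not overlap for 11 members, 52.4%, against 49.7% of all tested genes. The LPS libraries were above for 7 members and below for 4, against 24.2% and 25.5% of all tested genes. With the libraries labelled APRIL left out of the fit 4 members were again called, against 6.51% of all tested genes.

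Serpinb2 (ENSMUSG00000062345, chromosome 1, 107511423 to 107535478, plus strand) encodes PAI-2, a largely intracellular inhibitor of urokinase known as an LPS-induced gene of macrophages. It had 60.1 and 56.9 TPM with LPS, 2.07 and 2.35 TPM with norepinephrine, 1.41 and 0.764 TPM with BAFF, 0.610 and 2.13 TPM under the APRIL label, and 1.11 and 0.722 TPM with saline. Both LPS libraries stood far above all 8 others. The rise over saline was 4.96 ± 0.30 on the log2 scale (limma adjusted p = 0.000454), or 63.8 times in mean TPM, and it was called in all 13 alternative fits. Its gene overlaps Serpinb10, with which it shares 11.2% of its 31-base words, and Serpinb10 is listed at 0 in all 10 libraries.

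Serpina3g (ENSMUSG00000041481, chromosome 12, 104236245 to 104241939, plus strand), also known as Spi2A, is an intracellular inhibitor of cysteine cathepsins. Its levels were 27.5 and 34.2 TPM with LPS, 2.22 and 2.30 TPM with norepinephrine, 4.20 and 1.82 TPM with BAFF, 12.7 and 35.7 TPM under the APRIL label, and 4.55 and 2.48 TPM with saline. The LPS libraries lay above the 6 libraries of norepinephrine, BAFF and saline. The log2 fold change with LPS against saline was 2.85 ± 0.48 (limma adjusted p = 0.0188). Leaving out LPS replicate 1, LPS replicate 2, saline replicate 1 or saline replicate 2 ended this call (adjusted p 0.0630 to 0.153), with the change at 2.51 to 3.19.

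Serpina3c (ENSMUSG00000066361, chromosome 12, 104146382 to 104153870, minus strand), a secreted member of the same cluster, went the other way. It stood at 2.43 and 5.06 TPM with LPS, 6.78 and 9.16 TPM with norepinephrine, 12.9 and 18.5 TPM with BAFF, 4.05 and 1.54 TPM under the APRIL label, and 15.0 and 16.3 TPM with saline. LPS and saline libraries did not overlap, and the norepinephrine libraries fell between them. With LPS it fell by 1.87 ± 0.38 on the log2 scale (limma adjusted p = 0.0393). The call ended without LPS replicate 1 (adjusted p = 0.215), saline replicate 1 (0.160) or saline replicate 2 (0.226).

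Serpinb1a (ENSMUSG00000044734, chromosome 13, 32842092 to 32851185, minus strand) inhibits neutrophil elastase, cathepsin G and proteinase 3. Its libraries held 8.06 and 9.61 TPM with LPS, 11.6 and 14.3 TPM with norepinephrine, 21.3 and 18.5 TPM with BAFF, 4.41 and 5.12 TPM under the APRIL label, and 19.0 and 19.2 TPM with saline. Both LPS libraries lay below all norepinephrine, BAFF and saline libraries. Against saline it fell by 1.03 ± 0.15 on the log2 scale (limma adjusted p = 0.00915), and the call ended without LPS replicate 1 (adjusted p = 0.0730), saline replicate 1 (0.0727) or saline replicate 2 (0.0848). The gene of one of its known targets, Prtn3 (proteinase 3), had 4.64 and 4.54 TPM with LPS and 17.9 and 18.9 TPM with saline, so that it fell by 1.80 ± 0.36 (limma adjusted p = 0.0357).

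**Figure D2:**
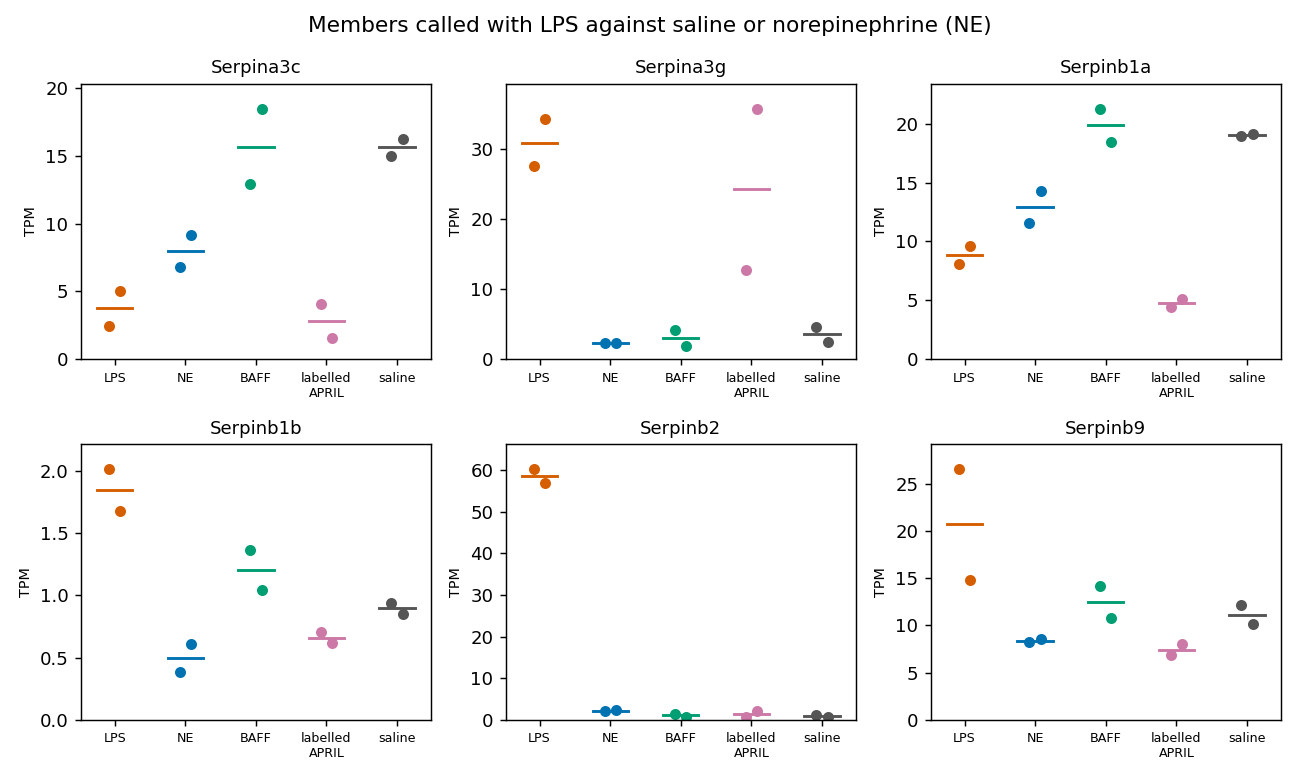
TPM per library of the 6 members called between LPS and saline or between LPS and norepinephrine (NE), with 2 points and a bar at the mean for each group on linear axes that start at 0. Serpinb2 and Serpina3g are high with LPS, Serpina3c and Serpinb1a are low with LPS, and the libraries labelled APRIL are high for Serpina3g alone among these 6.

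Beside these, 4 members had an unadjusted p under 0.05 and were not called. Serpinb9, which inhibits granzyme B, had 26.5 and 14.8 TPM with LPS and 12.1 and 10.1 TPM with saline (limma adjusted p = 0.163). Serpinb1b had 2.01 and 1.68 TPM with LPS and 0.941 and 0.854 TPM with saline (adjusted p = 0.123). The Serpina3 paralogues Serpina3f and Serpina3i averaged 1.74 ± 1.17 and 15.0 ± 4.10 TPM with LPS and 0.326 ± 0.0120 and 7.43 ± 4.20 TPM with saline (SD, n = 2), with adjusted p by limma of 0.156 and 0.265. The LPS libraries of all 4 lay above both saline libraries.

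The clades were thus mixed within themselves. In clade a, Serpina3g rose, Serpina3c fell and the 4 others were not called. The most abundant, Serpina3n, a secreted inhibitor of granzyme B and leukocyte elastase, had 293 and 302 TPM with LPS and 319.7 and 300.4 TPM with saline, a log2 difference of -0.06 with a 95% interval of -0.54 to 0.42. In clade b, Serpinb2 rose, Serpinb1a fell and 7 were not called.

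Reads of close paralogues can be divided wrongly between them, because the values are estimates of a transcript quantifier. In the GENCODE M21 transcripts 16.9 to 35.0% of the 31-base words of the 6 Serpina3 members also occur in other genes, with Serpina3g sharing 16.2% with Serpina3f. The share was 10.2% for Serpinb1a and 0 for Serpinf1, Serpinf2 and Serpinh1. Serpinb6a shares 29.0% in all, of which the largest part, 13.1%, is with Nqo2, a gene that overlaps it on the opposite strand. Serpinb6c shares 22.9% in all.

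Macrophage markers, 7 of 8 of them tested, summed to 414 and 132 TPM with LPS and 248 and 109 TPM with saline. The leukocyte marker Ptprc lay between 0 and 0.218 TPM in all libraries. Cd14 was above saline, at 98.1 and 40.6 TPM with LPS and 25.0 and 12.5 TPM with saline. So was Itgam, at 62.9 and 20.7 TPM with LPS and 16.0 and 4.79 TPM with saline, while all others of the list overlapped. Of 7 neutrophil and mast cell markers, 2 were tested, S100a9 was listed at 0 throughout, and the sums were 22.7 and 15.1 TPM with LPS and 2.94 and 3.20 TPM with saline. S100a8 alone made up 19.5 and 13.9 TPM with LPS and 1.21 and 0.369 TPM with saline. Kit, the other tested marker, overlapped, at 1.28 and 0.757 TPM with LPS and 1.06 and 2.54 TPM with saline. The adipocyte marker sums, at 4683 and 5256 TPM, were below those with saline, at 6754 and 7798 TPM. The part of these cells in the changes with LPS, that of Serpinb2 included, was not tested. Of 7 keratinocyte and mammary epithelial markers, none was tested, and their sums stayed at or below 0.803 TPM in all libraries.

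Other genes of the serpins' pathways changed in part with LPS. Of 10 tested coagulation genes 3 rose and 0 fell, against 2.87% and 0.932% of all tested genes. Thbd (thrombomodulin), which redirects thrombin to activate protein C, had 21.2 and 23.0 TPM with LPS and 7.34 and 6.87 TPM with saline (limma adjusted p = 0.00239). Procr, the protein C receptor, and Tfpi2, a Kunitz-type inhibitor, also rose (adjusted p = 0.0299 and 0.0295). Among 8 tested protease inhibitors outside the family Slpi, an inhibitor of leukocyte elastase, rose to 109 and 33.5 TPM with LPS, against 2.65 and 2.71 TPM with saline (adjusted p = 0.00631). None of 8 plasminogen system genes was called, the urokinase receptor gene Plaur averaging 26.3 TPM with LPS and 11.3 TPM with saline (adjusted p = 0.0859). Of 13 collagen folding partners of Serpinh1 only P4ha2 was called, higher (adjusted p = 0.0400). Of 5 tested proteases known as serpin targets Prtn3 alone was called, and of 9 cysteine cathepsins and 8 receptors of serpins none was. Over the 7 lists, with 61 tested entries, the fit without the libraries labelled APRIL called 8 higher and 4 lower. Among them were Plat and Furin, higher, and Pnpla2, lower. That fit called 6.51% of all tested genes.

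Norepinephrine against saline shows the inhibitors under an adrenergic stimulus. None of the 21 members was called by limma, against 0.699% of all tested genes (0.614% higher and 0.0847% lower), and 3 had an unadjusted p under 0.05. With the libraries labelled APRIL left out of the fit none was called either, against 5.95% of all tested genes, and 5 had an unadjusted p under 0.05. Serpinb1a averaged 12.95 ± 1.91 TPM with norepinephrine and 19.1 ± 0.101 TPM with saline (SD, n = 2; adjusted p = 0.132). Serpina3c averaged 7.97 ± 1.68 TPM with norepinephrine and 15.6 ± 0.919 TPM with saline (adjusted p = 0.273). Serpinb2 averaged 2.21 ± 0.196 TPM with norepinephrine and 0.917 ± 0.276 TPM with saline (adjusted p = 0.262). For these 3 the groups did not overlap.

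Both norepinephrine libraries were below both saline libraries for 11 of the 21 members and above them for 2, against 22.9% and 34.0% of all tested genes. Non-overlapping members were thus 61.9%, against 56.9% of all tested genes. The mean TPM of the 11 was 0.317 to 0.839 times that with saline, and only Serpina3c and Serpinb1a among them had an unadjusted p under 0.05. Adipocyte markers summed to 13010.0 and 13506 TPM with norepinephrine and 6754 and 7798 TPM with saline. Fabp4 alone made up 11391 and 11802 TPM of these with norepinephrine and 5452 and 6287 TPM with saline. Cidec, Cebpa and Pparg were also higher in both libraries. Plin1 overlapped, Lep was lower, and Adipoq overlapped at 918 and 934 TPM with norepinephrine and 925 and 1062 TPM with saline. Smooth muscle and pericyte markers summed to 471 and 577 TPM with norepinephrine and 877 and 981 TPM with saline. Acta2 made up most of these sums. Cspg4 alone of that list was higher, at 18.3 and 23.1 TPM with norepinephrine and 9.61 and 8.56 TPM with saline. The neutrophil and mast cell markers summed to 9.29 and 7.01 TPM with norepinephrine and 2.94 and 3.20 TPM with saline. Of the tested ones S100a8 was higher and Kit overlapped. The part of these cells in the members' values was not tested. The members' median log2 fold change was -0.26, that of all tested genes 0.04. Serpinh1 (HSP47), the collagen chaperone of the endoplasmic reticulum, had 722 and 756 TPM with norepinephrine and 1018 and 991 TPM with saline, a log2 difference of -0.44 with a 95% interval of -0.90 to 0.01. Serpinf1 (PEDF), known as an anti-angiogenic secreted protein that binds the adipose lipase Pnpla2, had 1776 and 1795 TPM with norepinephrine and 1871 and 1761 TPM with saline. Of the 61 tested entries of the pathway lists Thbd alone was called with norepinephrine, against 0.699% of all tested genes. It had 13.3 and 15.4 TPM, against 7.34 and 6.87 TPM with saline (limma adjusted p = 0.0476). Without the libraries labelled APRIL in the fit 3 list genes were higher (Thbd, A2m and Pnpla2) and 1 lower (Hspa5). That fit called 5.95% of all tested genes, so no change is read for the lists as such.

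Set directly against norepinephrine, LPS cultures had 4 members higher and none lower, 19.0% of the 21, against 7.81% of all tested genes (3.62% higher and 4.19% lower). Groups did not overlap for 14 members, 66.7%, against 54.8% of all tested genes, with 11 above and 3 below, against 22.0% and 32.8% of all tested genes. Serpinb2 differed by 4.21 ± 0.30 on the log2 scale (limma adjusted p = 0.000606) and Serpina3g by 3.28 ± 0.48 (adjusted p = 0.00961). Serpinb9 had 26.5 and 14.8 TPM with LPS and 8.26 and 8.51 TPM with norepinephrine (log2 difference 1.15 ± 0.25, adjusted p = 0.0360). Serpinb1b, a paralogue of Serpinb1a, had 2.01 and 1.68 TPM with LPS and 0.384 and 0.613 TPM with norepinephrine (log2 difference 0.93 ± 0.17, adjusted p = 0.0203). For these 4 genes each LPS library lay above each norepinephrine library. Leaving out 1 of the 4 libraries compared ended the calls of Serpinb1b each time (adjusted p 0.0585 to 0.121), and those of Serpinb9 and Serpina3g in 3 of 4 cases, while Serpinb2 was called in all 4. Serpina3f gave a log2 difference of 1.24 ± 0.31 (limma adjusted p = 0.0512) and was called with the libraries labelled APRIL left out of the fit, which gave 5 members, against 15.4% of all tested genes. Of the pathway lists 6 genes were higher with LPS (Plaur, Tfpi2, Procr, Slpi, P3h1 and P4ha2) and 2 were lower (Prtn3 and Vldlr), out of 61 tested entries, and 12 and 7 without the libraries labelled APRIL in the fit. Prtn3 had 4.64 and 4.54 TPM with LPS and 32.8 and 24.1 TPM with norepinephrine (limma adjusted p = 0.0104).

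BAFF against saline asks whether one of the ligands in the study's title moved the inhibitors. None of the 21 members was called by limma, against 0.0141% of all tested genes, all of them lower, and 1 member had an unadjusted p under 0.05. That was Serpinb6c, a cytosolic clade b inhibitor, with 106 and 77.5 TPM with BAFF and 42.1 and 60.5 TPM with saline (log2 difference 0.83 ± 0.26, limma adjusted p = 0.996). The members' median log2 fold change was 0.09 and that of all tested genes was 0.11, the latter being 0.11 lower after median-ratio scaling. The BAFF and saline libraries did not overlap for 5 members, 23.8%, against 44.1% of all tested genes. The BAFF libraries were above for 4 of these and below for 1, against 40.4% and 3.76% of all tested genes. Intervals of the difference were among the narrower ones for most of the abundant members. They ran from -0.30 to 0.45 for Serpinf1, from -0.36 to 0.55 for Serpinh1 and from -0.40 to 0.14 for Serpinb6a. The widest was that of Serpina3m, at 11.05 and 12.4 TPM with BAFF and 11.2 and 3.34 TPM with saline (-0.61 to 2.21). No gene of the pathway lists was called. With the libraries labelled APRIL left out of the fit the members called were again 0 and the share of all tested genes was again 0.0141%.

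**Figure D3:**
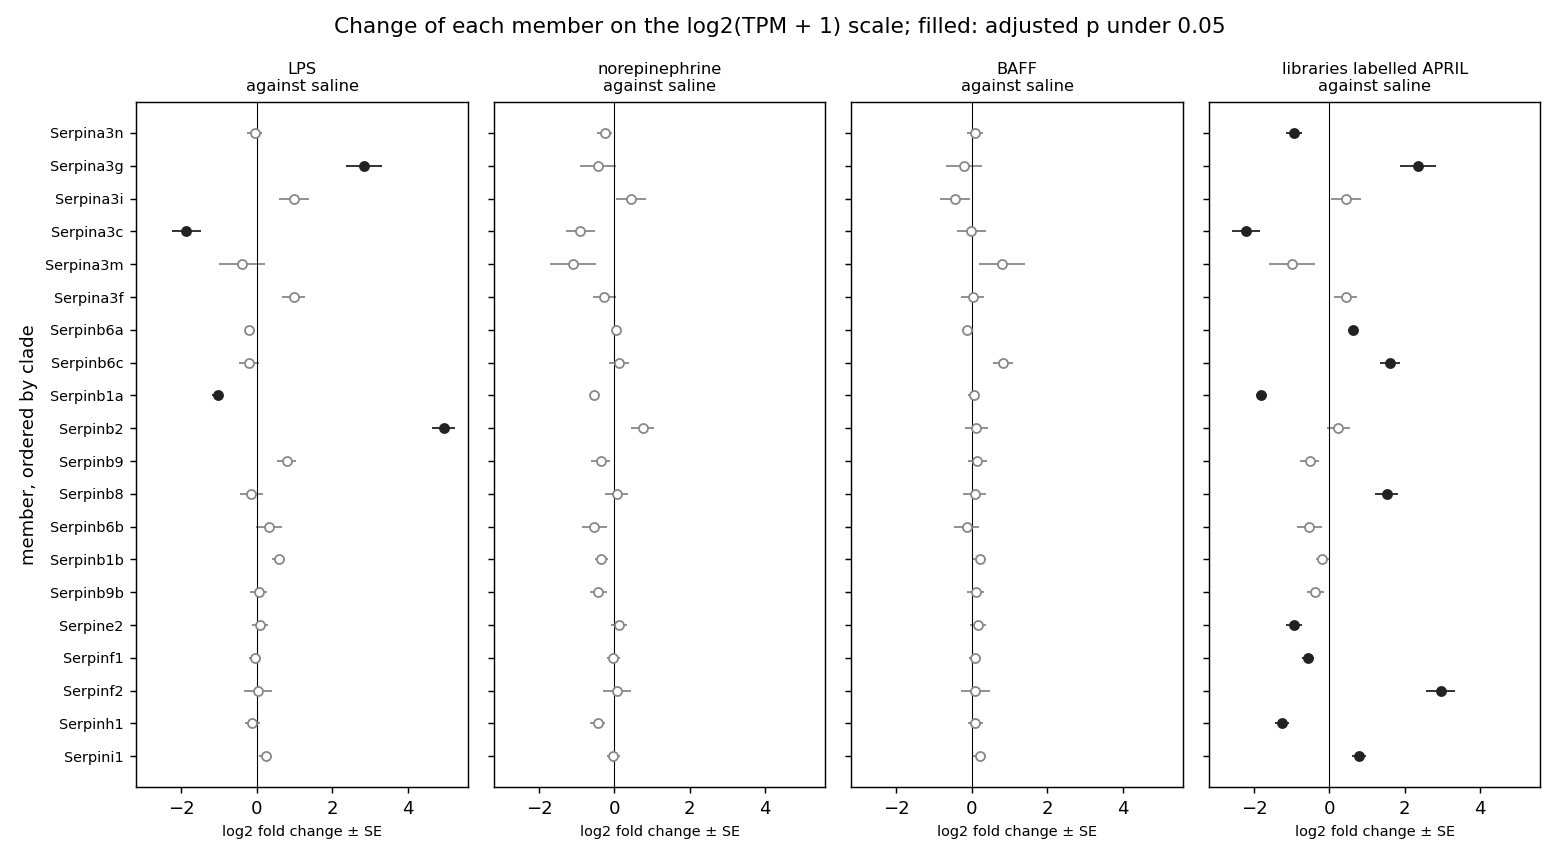
Log2 fold change ± SE of the members described here on the log2(TPM + 1) scale in the 4 comparisons with saline, filled where the limma adjusted p is under 0.05. LPS has 4 filled points, norepinephrine and BAFF have 0 and the libraries labelled APRIL have 12.

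In the libraries labelled APRIL 12 of the 21 members were called, 6 higher and 6 lower, against saline. This is 57.1%, beside 58.1% of all tested genes (33.1% higher and 25.0% lower), so the members changed about as often as any gene in these libraries. Groups did not overlap for 19 members, 90.5%, against 77.7% of all tested genes, with 8 above and 11 below, against 42.5% and 35.2% of all tested genes. Of the members called higher, 2, Serpinf2 and Serpini1, qualified through these libraries alone, so the choice of members favoured their calls. The sums of marker genes moved as well. The 6 fibroblast and preadipocyte markers, 5 of them tested, summed to 1550 and 1971 TPM under the APRIL label and to 6317 and 5659 TPM with saline. Col1a1 made up most of these sums, at 1203 and 1468 TPM under the APRIL label and 5697 and 5122 TPM with saline. Thy1 had 215 and 315 TPM under the APRIL label and 375 and 343 TPM with saline. Pdgfra, Dpp4 and Pi16 were also lower in both libraries, and Dcn overlapped saline. All 5 smooth muscle markers were tested, and their sums, mostly Acta2, were 129 to 199.6 TPM under the APRIL label and 877 to 981 TPM with saline. Their part in the changes, and that of the Y-linked difference, was not tested.

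Among the members the largest log2 change was in Serpinf2 (α2-antiplasmin), the plasmin inhibitor that is made mainly by liver. It had 4.10 and 11.8 TPM under the APRIL label and 0.0336 and 0.0540 TPM with saline, a log2 fold change of 2.95 ± 0.38 (limma adjusted p = 0.000391). In all 8 other libraries it stayed at or below 0.200 TPM, so it was a member only through the libraries in which it is called higher. The 5 liver markers, 1 of them tested, summed to 3.21 and 1.90 TPM under the APRIL label and to 2.27 and 1.48 TPM with saline. Serpinf1, its neighbour on chromosome 11, had 1032 and 1443 TPM under the APRIL label and 1871 and 1761 TPM with saline, so that it fell by 0.57 ± 0.16 (adjusted p = 0.0166). The call of Serpinf1 ended without saline replicate 1 (adjusted p = 0.0853) or saline replicate 2 (0.0540).

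Clade b split. The cytosolic inhibitors Serpinb6a and Serpinb6c rose, Serpinb6a to 645 and 641 TPM under the APRIL label, against 452 and 389 TPM with saline (adjusted p = 0.00269 by limma). Serpinb6c rose to 139 and 177 TPM, against 42.1 and 60.5 TPM with saline (adjusted p = 0.00131). Serpinb8, whose human counterpart inhibits furin, had 18.7 and 34.6 TPM under the APRIL label and 8.08 and 8.40 TPM with saline (adjusted p = 0.00347). Furin itself also rose, to 102 and 72.2 TPM, against 44.4 and 47.8 TPM with saline (adjusted p = 0.00175). Serpinb1a fell by 1.80 ± 0.15 (adjusted p = 4.77e-05). Clade b took 23.1 and 20.5% of the members' TPM under the APRIL label and 10.2 to 11.96% in the other 8.

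The remaining calls went to clades a, e, h and i. Serpina3g rose by 2.35 ± 0.48 and Serpina3c fell by 2.21 ± 0.38 (limma adjusted p = 0.00372 and 0.00161), the same directions as with LPS, in comparisons that share the saline libraries. Serpina3n fell to 126 and 205 TPM, against 319.7 and 300.4 TPM with saline (adjusted p = 0.00512). Serpine2 (protease nexin-1), an inhibitor of thrombin and urokinase, fell to 8.42 and 10.2 TPM, against 17.7 and 19.7 TPM with saline (adjusted p = 0.00545). Serpini1 (neuroserpin), an inhibitor of tissue plasminogen activator known from neurons, rose to 1.27 and 1.34 TPM, against 0.459 and 0.218 TPM with saline (adjusted p = 0.00595). Like Serpinf2, it was a member only through the libraries in which it is called higher.

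Serpinh1 fell with the enzymes that modify and fold collagen beside it. It had 336 and 524 TPM under the APRIL label and 1018 and 991 TPM with saline, so that it fell by 1.26 ± 0.19 (limma adjusted p = 0.00101). Of its 13 folding partners 11 fell and 0 rose, against 25.0% and 33.1% of all tested genes. The partners had a median log2 fold change of -0.97, against a median of 0.08 for all tested genes, which median-ratio scaling moved by 0.10. The collagen prolyl hydroxylation factor Crtap had 63.4 and 58.6 TPM under the APRIL label and 158 and 154 TPM with saline (adjusted p = 8.74e-05), and P3h3 and Fkbp10 fell likewise (adjusted p = 5.73e-05 and 0.000256). For the other lists the share called was near or below the 58.1% of all tested genes, so no change is read for a list as such. Of 8 plasminogen system genes 4 fell, among them Plat, which encodes tissue plasminogen activator, to 16.4 and 22.1 TPM, against 30.9 and 30.6 TPM with saline (adjusted p = 0.00377). Of 8 receptors that bind serpins or their complexes 3 fell and 1 rose, and Lrp1, the clearance receptor of serpin complexes, stood at 359 and 204 TPM under the APRIL label and 763 and 692 TPM with saline (adjusted p = 0.00126). Of the remaining genes, 4 of 9 cysteine cathepsins fell, 3 of 8 other inhibitors fell, 3 of 10 coagulation genes rose and 2 fell, and 1 of 5 target proteases rose.

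**Figure D4:**
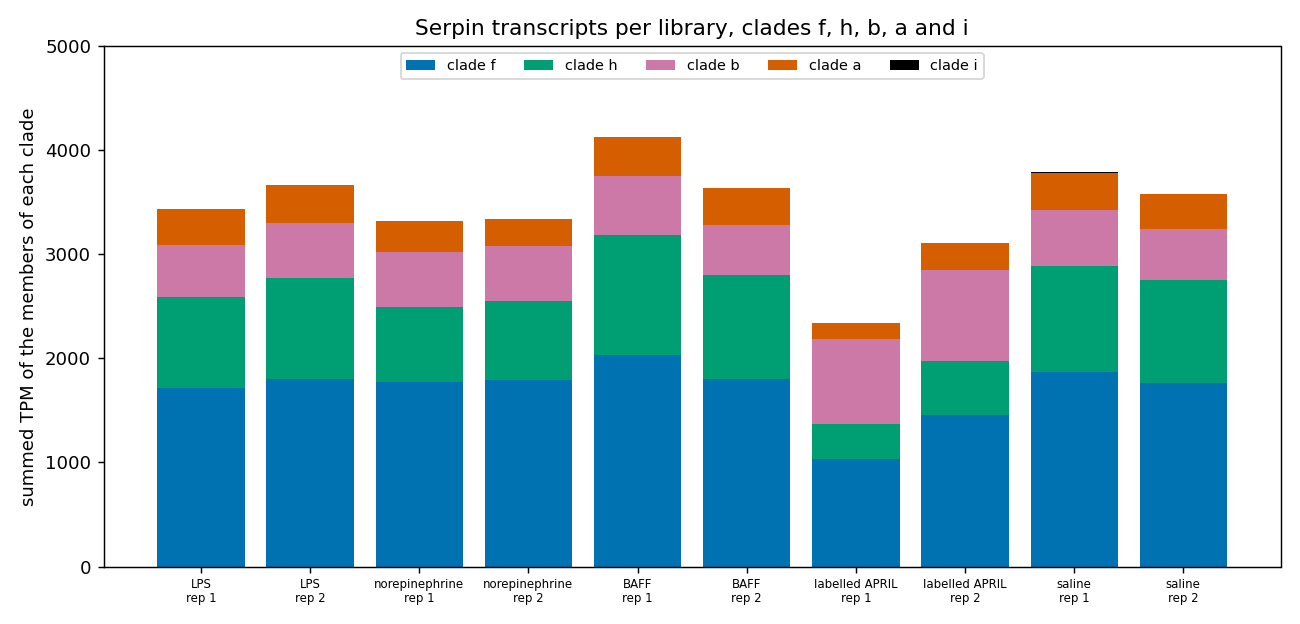
Summed TPM of the members of clades f, h, b, a and i in each library, stacked on a linear axis from 0. Clade f is the largest part shown in all libraries, and clade b is taller in both libraries labelled APRIL (817 and 873 TPM) than in any other library.

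Among clades f, h, b and a, the summed TPM ranked in that order in each library outside those labelled APRIL. In both libraries labelled APRIL clade b was above clade h. Over all 10 libraries clade f took 29.3 to 40.8% of the members' TPM, clade h 9.51 to 22.9%, clade b 10.2 to 23.1% and clade a 4.31 to 8.05%. Serpinb2, called with LPS in each fit, reached at most 60.1 TPM and so moved the clade b sum little, at 499 and 522 TPM with LPS and 540.2 and 494 TPM with saline.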

How the data were processed

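The authors' files hold TPM per Ensembl gene ID, 1 file per library, per the file headers. The submitters' processing notes name kallisto and the mm10 genome. The kallisto version, annotation release, summing of transcripts to genes and filters are not given in the sources used here. Library sums run from 953553 to 964726 TPM, and 12845 to 13115 genes per library reach 1 TPM. The files give no counts, so depth is unknown and replicate spread is the only error.

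Symbols matched 27458 of 28987 IDs, and positions come from GENCODE M21 (mm10). No member's values are identical to those of another ID. The test was limma (version 3.58.1, under R 4.3.3) on log2(TPM + 1) for genes that reached 1 TPM in 2 or more libraries. One fit of 5 group means held all libraries, with an intensity trend in the prior variance, 5 residual degrees of freedom and no block. The script was tested on simulated data. Alternatives were pseudocounts of 0.1 and 0.5, no filter, a filter at 5 TPM, the 4 compared libraries alone, the libraries labelled APRIL left out, scaling by median ratios, omission of mitochondrially encoded genes, a replicate block, a 1.5-fold minimum and each library left out.

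Members, lists and tests were chosen with earlier results of these data known. By rule every member called against saline is described, and at most 4 called genes of each other list are named. The promoters shown were chosen after the values were seen. Figures used matplotlib 3.10.9 in Python 3.11.15. Some family genes are not reported here.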

Additional observations from a re-analysis of the deposited data

How the results depend on the processing

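The counts of members called with norepinephrine and with BAFF stayed at 0 in all 14 alternatives each, and that of the libraries labelled APRIL stayed between 10 and 13. With LPS against saline the count was 2 from the 4 compared libraries alone (Serpinb2 and Serpina3g) and 2 without a filter (Serpinb2 and Serpinb1a), and 1 to 4 when 1 library was left out. Omitting LPS replicate 1 left 1 member, as did omitting either saline replicate, and in each case Serpinb2 was the member that remained. With LPS against norepinephrine it was 2 from the 4 libraries alone (Serpinb2 and Serpina3g) and 1 to 3 when 1 library was left out: 2 without LPS replicate 1, 1 without norepinephrine replicate 1 and 2 without norepinephrine replicate 2. The cause was not tested. Of 245 refitted fold changes of called members 0 changed sign and 32 missed the threshold. Replicate numbers were not taken to pair the libraries, since no label says so and not all pairs of groups correlated over 0.1. The deviations of same-numbered libraries from their group means correlated at -0.11 to 0.48 over 10 pairs of groups, 6 of them over 0.1, and the macrophage marker sum was higher in replicate 1 in all 5 groups. With a replicate block 4 members were called for LPS, 0 for norepinephrine, 0 for BAFF, 13 for the libraries labelled APRIL and 4 for LPS against norepinephrine.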

Other observations

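Some family genes below the level for testing were unevenly spread, and are given as values only. Serpina3h, annotated as a transcribed pseudogene of the Serpina3 cluster, had 0.928 and 1.28 TPM with LPS and at most 0.537 TPM in any other library. Serpina3i shares 16.3% of its 31-base words with Serpina3h. Serpinc1 (antithrombin), the liver-made inhibitor of thrombin, reached 0.401 and 0.713 TPM with the APRIL label and 0.0859 TPM at most in the 8 others. Serpind1 (heparin cofactor II) had 0.845 and 0.613 TPM with LPS, 0.220 and 0.0985 TPM with norepinephrine, and 0.309 and 0.624 TPM with BAFF. It had 0.133 and 0.0279 TPM with the APRIL label, and 0.324 and 0.289 TPM with saline. Its LPS and saline libraries did not overlap, which also held for 49.7% of all tested genes. These family genes were chosen after their values were seen.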
